A study of Drosophila melanogaster with 15 samples.

Results

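A list of 10 alpha-, beta- and gamma-tubulin genes of Drosophila melanogaster was looked up by name in an annotation on build dm6. The annotation has 15991 transcription units that hold 17698 genes. A transcription unit is the stretch from the first annotated start to the last annotated end of a gene, or of several genes that the annotation joins on 1 strand. Each of the 10 genes had a unit, and each unit held that gene alone. The annotation belongs to an mNET-seq study, which sequences RNA held by engaged RNA polymerase, in embryos at stage 15. Embryos with maternal depletion of mof by UAS-mof RNAi (4 male MOF and 4 female MOF libraries) were set against control RNAi embryos (3 male Control and 4 female Control libraries). The male Control libraries used are replicates 2, 3 and 4. The driver of the RNAi is not given in the sources used here. MOF is the histone H4 lysine 16 acetyltransferase of the dosage compensation complex. No per-library value was analysed here, so depth is unknown, and whether MOF depletion affects the tubulin genes was not examined. The values describe where these genes lie and what lies beside them. They cover all members of the list, so they carry no sampling error, and no test was applied.

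Alpha- and beta-tubulin form the dimers from which microtubules are built, and gamma-tubulin, in a ring complex with partner proteins, starts new microtubules at centrosomes and other sites. Flies use several genes of each kind in different cells. From general knowledge of the fly, alphaTub84B, alphaTub84D, betaTub56D and gammaTub23C were taken as the ubiquitous isotypes. The other members are used in fewer places. alphaTub67C and gammaTub37C are supplied to the egg by the mother, and betaTub85D builds the microtubules of the male germ line and the sperm tail. betaTub60D is known for developing muscle, alphaTub85E for muscle, chordotonal organs and testis, and betaTub97EF for the gut. The annotation itself says nothing of where a gene is used.

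None of the 10 tubulin genes lay on X (0 of 10, where 15.0% of all units are X-linked). The right arm of chromosome 3 held 5 of them, 2L and 2R held 2 each, and 3L held 1. The plus strand carried 5 and the minus strand 5. The shares of all units on these arms and strands were not computed, so the counts single out no arm or strand. Members of a family were not neighbours. The closest pair was betaTub85D and alphaTub85E, with 320939 bp and 56 units between them. The closest pair of 1 family was alphaTub84B and alphaTub84D, separated by 441914 bp and 78 units. The 2 gamma-tubulin genes, on the same arm, were 16209005 bp apart, and betaTub56D and betaTub60D 4854281 bp.

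The ubiquitous alpha-tubulin alphaTub84B (FBgn0003884) spanned 3R from 7086599 to 7088839 on the plus strand, 2241 bp. alphaTub84D (FBgn0003885), which encodes nearly the same protein, spanned 3R from 7530753 to 7532732 on the plus strand, 1980 bp. alphaTub67C (FBgn0087040), the maternal alpha-tubulin, spanned 3L from 9681268 to 9683370 on the plus strand, 2103 bp. These lengths lay close together in spite of the different uses of the genes. alphaTub85E (FBgn0003886) spanned 3R from 9731221 to 9733250 on the minus strand, 2030 bp. The longest alpha unit was thus 1.13-fold the shortest, and each of the 4 had 1 transcript. Gamma-tubulins were as compact. The ubiquitous gammaTub23C (FBgn0260639) spanned 2L from 2972891 to 2974858 on the plus strand, 1968 bp with 1 transcript. The maternal gammaTub37C (FBgn0010097) spanned 2L from 19183863 to 19185726 on the minus strand, 1864 bp with 2 transcripts, and was the shortest of the 10.

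The beta-tubulin units varied most, with an 11.3-fold range. betaTub85D (FBgn0003889), the testis isotype, spanned 3R from 9408383 to 9410282 on the minus strand, 1900 bp with 1 transcript, close to the alpha and gamma units in size. betaTub56D (FBgn0284243), the ubiquitous isotype, spanned 2R from 19447319 to 19451600 on the minus strand, 4282 bp. betaTub60D (FBgn0003888), the muscle isotype, spanned 2R from 24305881 to 24313099 on the plus strand, 7219 bp. The longest was betaTub97EF (FBgn0003890), on 3R from 27967008 to 27988384 on the minus strand, 21377 bp, longer than 92.6% of units with a protein-coding gene. betaTub56D, betaTub60D and betaTub97EF had 2 transcripts each.

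**Figure D1:**
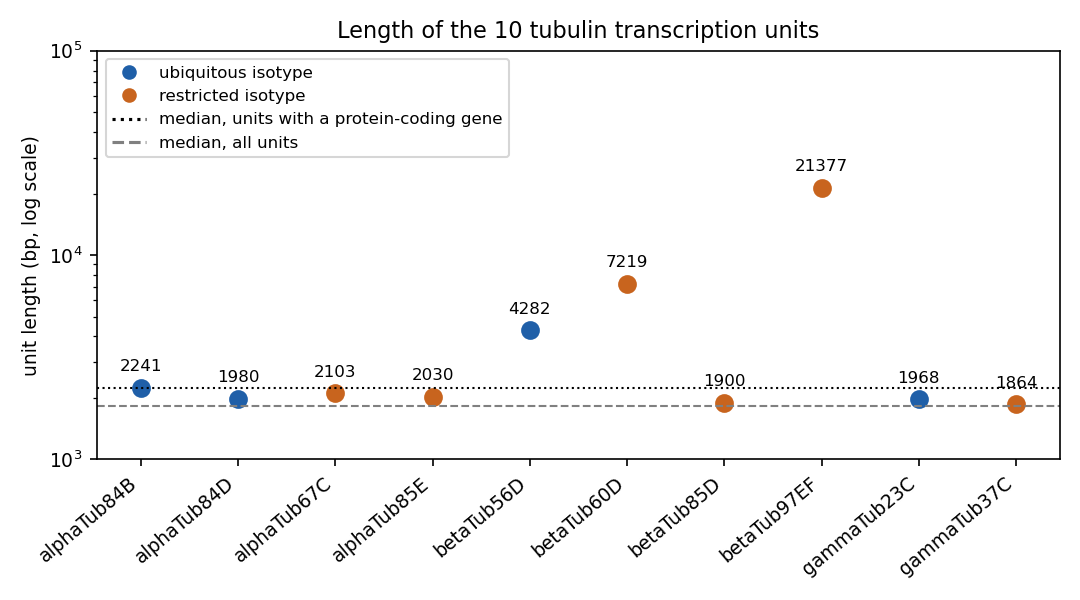
Length of each tubulin unit in bp on a log scale, 1 point a gene with its length printed above, blue for ubiquitous and orange for restricted isotypes. Dotted and dashed lines mark the medians of units with a protein-coding gene (2241 bp) and of all units (1817 bp). The alpha and gamma units and betaTub85D sit between 1864 and 2241 bp, and the other beta units lie above.

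The median of the 10 units was 2066.5 bp, against 2241 bp for the 13036 units with a protein-coding gene and 1817 bp for all units. alphaTub84B lay at that protein-coding median. Lengths from 1864 to 2241 bp held 7 of the 10 members, where 7.69% of units with a protein-coding gene fall. The ends of that interval are members' own lengths, so this share is a description. The ubiquitous and the pooled restricted isotypes were not separated by length. Ubiquitous isotypes had a median of 2110.5 bp (1968 to 4282 bp, 4 genes) and restricted isotypes 2066.5 bp (1864 to 21377 bp, 6 genes), a ratio of 1.02. The ranges overlapped, and the longest and the shortest of all 10 were both restricted. Within the restricted class, maternal and testis units measured 1864 bp (gammaTub37C), 2103 bp (alphaTub67C) and 1900 bp (betaTub85D). Those of alphaTub85E, betaTub60D and betaTub97EF measured 2030, 7219 and 21377 bp. Of the beta-tubulins only betaTub56D is ubiquitous, so family and class are not separated in this contrast. All 10 had at most 2 transcripts, as do 72.5% of units with a protein-coding gene, and 6 had 1 transcript (46.9% of those units). The protein-coding unit with the most transcripts had 75. Starts, ends and transcript numbers of the 10 genes were identical to those of the RefSeq gene table.

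No tubulin unit overlapped a unit on the opposite strand (0 of 10), although 39.1% of all units and 39.7% of those with a protein-coding gene do. The count was also 0 of 10 for overlaps of at least 100 bp (28.5% of all units) and for overlaps with a protein-coding unit (34.7%). None was joined to another gene (0 of 10, where 7.15% of all units are joint and 5.02% of those with a protein-coding gene hold several such genes). At shares this low, 0 among 10 genes does not set the tubulins apart. betaTub65B, a tubulin gene by its RefSeq number but outside the 10, lies in a joint unit described below. A unit of 1 gene free of any opposite-strand overlap is the state of 57.5% of all units and of 10 of 10 tubulin units. In such a unit no second gene is joined, and no annotated base lies in a unit on the opposite strand.

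**Figure D2:**
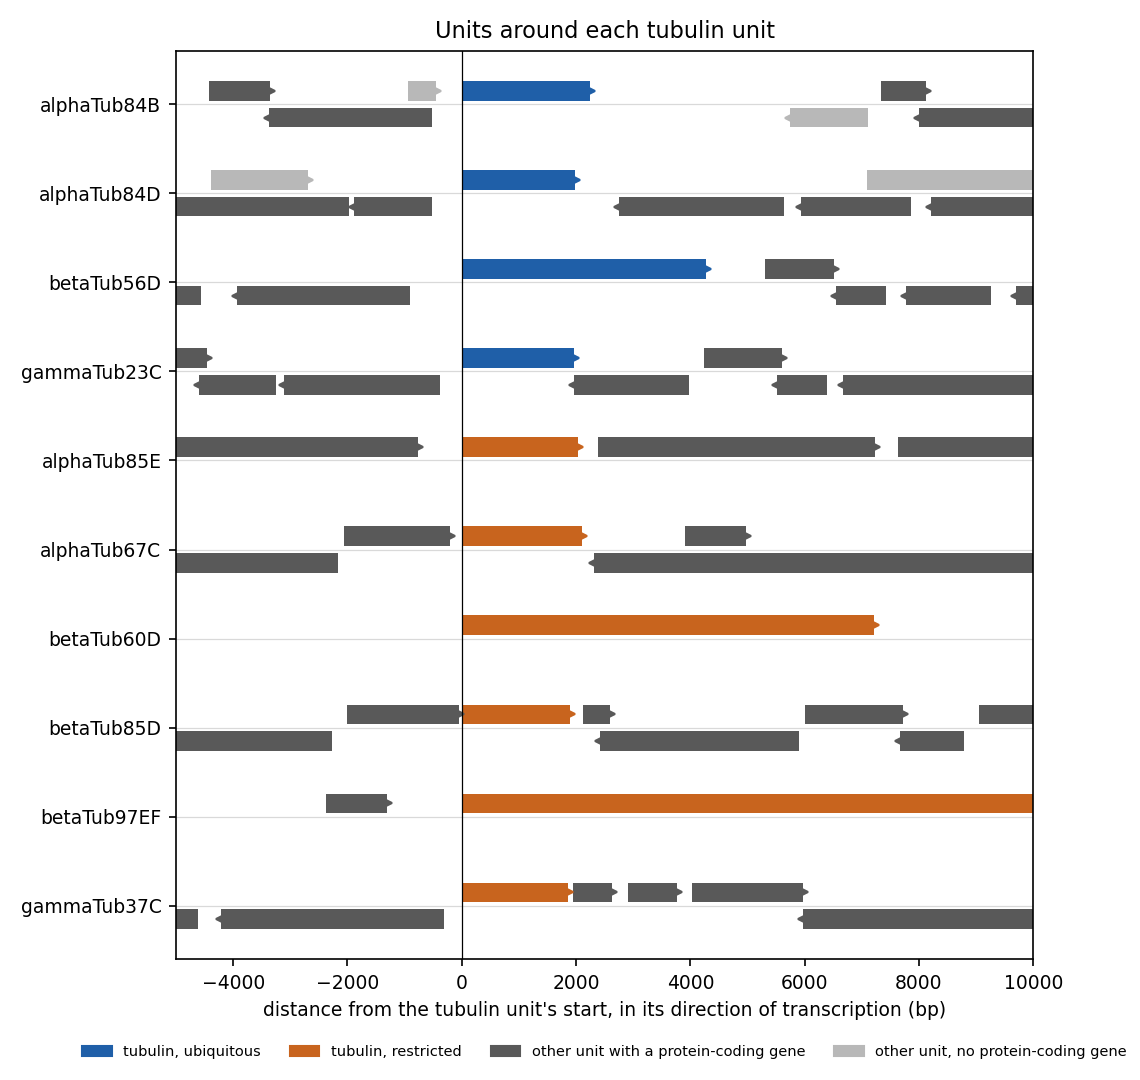
Units around each tubulin gene, with the distance from its start in bp in its own direction of transcription, so that every tubulin unit points right. Bars above a line run on the tubulin strand and bars below it on the opposite strand, arrowheads mark unit ends, and bars that leave the window are cropped. All 4 ubiquitous isotypes (blue, above) have a bar pointing away from them on the opposite strand within 1000 bp of their start, and of the 6 restricted isotypes (orange) gammaTub37C does.

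Freedom from overlap did not mean distance. Distances here are differences of coordinates, so 1 bp means adjacent bases. gammaTub23C ended 1 bp before the end of CG9641, which runs toward it, so that the 3' ends touch without overlapping. The end of betaTub97EF lay 50 bp from that of CG4849, again tail to tail. The nearest unit downstream was tail to tail for 5 of 10 members (40.8% of all units), 3 of 4 ubiquitous and 2 of 6 restricted isotypes. A tail-to-tail neighbour within 100 bp is found for 10.1% of all units and for these 2 of the 10 members. alphaTub67C was close on both sides. CG16717 on the same strand ended 208 bp before its start, and CG6767 on the opposite strand ended 209 bp beyond its end. The testis gene betaTub85D began 47 bp after the end of Task7, a potassium channel gene on the same strand, and CG44261 began 214 bp after its own end. An upstream neighbour on the same strand within 100 bp is found for 3.46% of all units. The next same-strand unit began 76 bp after gammaTub37C (CG46059) and 349 bp after alphaTub85E (FoxP, a forkhead transcription factor gene). A same-strand unit ended at most 500 bp before the start of 3 of 10 members (alphaTub84B, alphaTub67C and betaTub85D), and one began at most 500 bp after the end of 3 of 10 (alphaTub85E, betaTub85D and gammaTub37C). Each of these is the case for 21.3% of all units.

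Starts of the ubiquitous isotypes faced another protein-coding gene. A divergent start, that is an opposite-strand start upstream of the tubulin start, lay 383 bp from gammaTub23C (Rrp1, an endonuclease gene) and 512 bp from alphaTub84D (Rtnl2, a reticulon gene). It lay 516 bp from alphaTub84B (Tailor, an RNA uridylyltransferase gene) and 904 bp from betaTub56D (CG7744). Among restricted isotypes the maternal gammaTub37C had the closest divergent start of all 10 members, at 317 bp (pigeon). The other restricted isotypes had none within 1000 bp. The distances were 2165 bp for alphaTub67C, 2266 bp for betaTub85D, 7649 bp for alphaTub85E, 11524 bp for betaTub97EF and 36702 bp for betaTub60D.

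No member had a divergent start within 200 bp (0 of 10, where 9.68% of all units do). Within 500 bp the count was 2 of 10, both of them gamma-tubulins (24.3% of all units, or 25.4% when protein-coding units alone are counted), and alphaTub84D and alphaTub84B lay just outside that distance. Within 1000 bp it was 5 of 10 (33.1% of all units), with 4 of 4 ubiquitous and 1 of 6 restricted isotypes. This split between the classes depends on the distance chosen, since within 500 bp it was 1 of 4 ubiquitous and 1 of 6 restricted isotypes. The same 5 partners, at the same distances, are the nearest protein-coding units upstream of these members, so the orientation of that neighbour restates the count. It was head to head for 4 of 4 ubiquitous isotypes and 1 of 6 restricted isotypes, and on the same strand for the other 5 restricted isotypes (head to head for 52.3% of units with a protein-coding gene). With non-coding units counted, the nearest upstream unit was head to head for 4 of 10 members (49.8% of all units). The difference was alphaTub84B, since CR45907 on its own strand ends 459 bp upstream, nearer than Tailor. The restricted isotypes had a same-strand neighbour upstream at 47 bp (betaTub85D), 208 bp (alphaTub67C), 762 bp (alphaTub85E), 1315 bp (betaTub97EF) and 7770 bp (betaTub60D). With 10 genes sorted into classes after earlier results were known, the contrast is a description and was not tested.

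**Figure D3:**
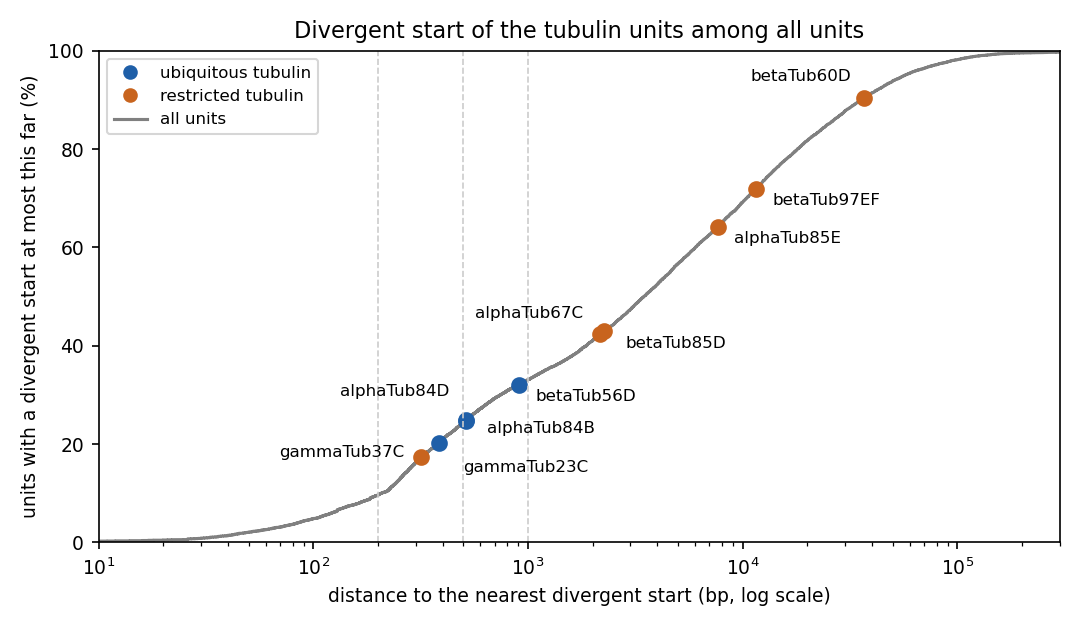
Share of all 15991 units (grey curve, percent) with a divergent start at most the given distance away (bp, log scale), with each tubulin gene marked on the curve at its own distance, blue for ubiquitous and orange for restricted isotypes. Dashed lines mark 200, 500 and 1000 bp. The 4 ubiquitous isotypes and gammaTub37C lie between 317 and 904 bp, and the other restricted isotypes at 2165 bp and beyond.

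The surroundings differed in density. Counting units centred within 25 kb on either side, the 10 members had a median of 10, against a median of 9 over all units. At the extremes, alphaTub84B and alphaTub84D had 14 each, and betaTub60D had 3. alphaTub84D stood among carboxylesterase genes. alpha-Est5 ended 764 bp beyond its end, and alpha-Est4aPsi lay 2685 bp upstream on its strand. betaTub60D was the most isolated member. Its nearest neighbours were CG3394 with mir-4985 at 7770 bp upstream and CR44810 at 11928 bp downstream, gaps that are exceeded by 13.3% and 9.41% of all units. For betaTub56D the next unit upstream on the same strand was that of TBCB, a tubulin folding cofactor gene, at 33894 bp. Over all 10 members, the distance to the end of the same-strand unit before the start had a median of 2000.0 bp, against 2935 bp over all units. gammaTub37C had the widest such gap, 73706 bp.

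The RefSeq table numbers 12 genes of the family with synonyms from Tub1A to Tub3B, of which 10 are the members and 2 are not. CG7794, numbered among the alpha-tubulins, had a unit of its own (1672 bp on 3R), with its nearest divergent start 107129 bp away. betaTub65B appears in the annotation as CG32396. Its gene model of 1701 bp on 3L (6530729 to 6532429) lies inside a joint unit of 3 genes with sfl and CR45979, 54425 bp long, and begins 35049 bp from that unit's start. Of the 12 numbered genes this was the one in a joint unit. The table also gives FBgn0003884, the identifier of alphaTub84B, as a synonym of both alphaTub84B and alphaTub84D. A match by that identifier alone would merge the pair, and the annotation keeps them apart.

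Genes whose products nucleate, fold, modify or bind tubulin were listed for comparison. All 47 listed genes were found, in 47 units. Of these units, 25 overlapped an opposite-strand unit by at least 1 bp (39.1% of all units) and 9 were joint (7.15% of all units). The limit of at least 100 bp was not applied to these lists, and several of their overlaps are shorter than that. On X lay 8 of the 47 (15.0% of all units). The gamma-tubulin ring complex, which holds gammaTub23C or gammaTub37C, had 6 of 7 units overlapped, from 23 bp at Grip128 to 2209 bp at Grip91, and Grip163 free. Of its 7 units, 3 lay on X (Grip84, Grip91 and Grip128), and Mzt1 shared a unit of 121572 bp with Svil and CG1146. The chaperonin genes CCT1 to CCT8, whose product folds alpha- and beta-tubulin, had units with a median length above the 2241 bp of protein-coding units. Their median was 2486.5 bp, from CCT8 (2147 bp) to CCT7 (4671 bp), with 2 of 8 overlapped, 1 joint (CCT2 with mir-13b-2) and CCT2 and CCT6 on X. The 5 folding cofactor units had a median of 1544 bp, from Tbca (759 bp) to Tbcd (4147 bp). None was joint, and Tbcb was the 1 that overlapped another unit.

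Genes for enzymes that modify tubulin include the acetyltransferase gene Atat and the TTLL ligases. Of their 12 units, 6 were overlapped (39.1% of all units), by 3 to 3077 bp. Another count was 2 joint units (Atat and TTLL5, 7.15% of all units). Their median length was 3554.5 bp, from TTLL1A (1873 bp) to Atat (13163 bp), and TTLL1A and HDAC6 lay on X. Genes for proteins that bind or sever microtubules had the highest median unit length of these lists, 10426 bp. The range was from spas (4768 bp) to futsch in its joint unit with Gr2a on X (45109 bp). That median is the joint unit of chb with AsnS. Lengths and transcript numbers of joint units take in the partner genes, whereas each tubulin unit holds 1 gene. In this list 10 of 15 were overlapped (39.1% of all units), by 1 to 2221 bp. Joint units numbered 5 (chb, tau, futsch, tacc and stai, 7.15% of all units), and the median was 6 transcripts, against 1 for the tubulins. The 6 actin genes, another family of cytoskeletal isotypes, had a median of 2301 bp. Among them 1 unit was overlapped (Act87E), 1 was joint (Act57B with a snoRNA gene) and 1 lay on X (Act5C, 15.0% of all units). A divergent start within 500 bp, found for 24.3% of all units, was present for 0 of 6 actins. It was present for 5 of 7 units of the ring complex, 4 of 8 of the chaperonin, 2 of 5 folding cofactors, 5 of 12 modifiers and 2 of 15 microtubule-associated proteins, 18 of 47 in all.

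**Figure D4:**
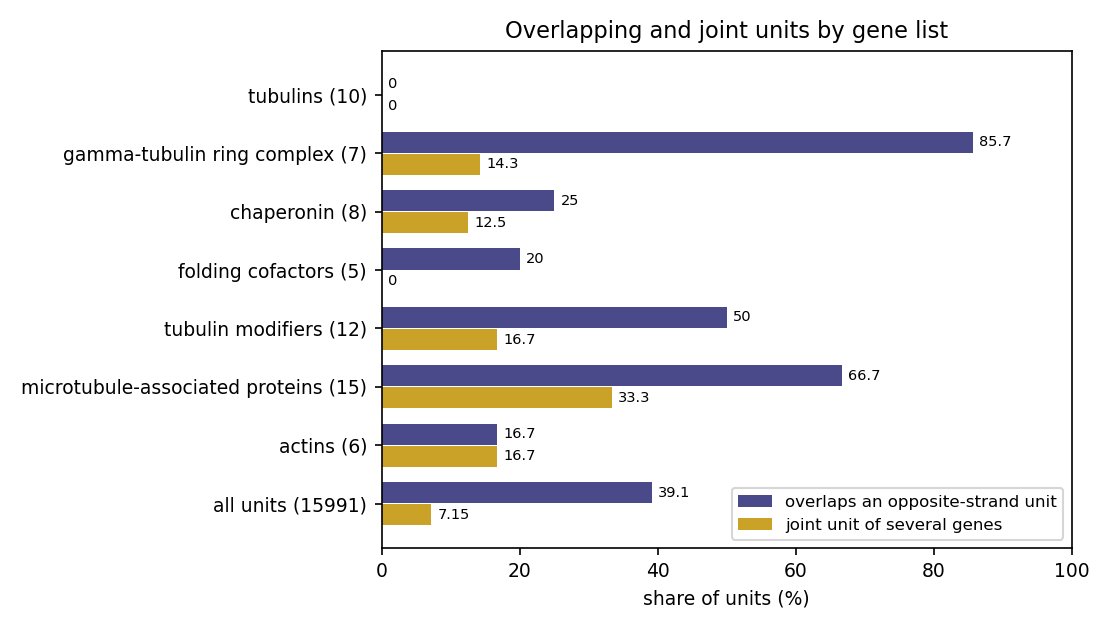
Share of units (percent) that overlap an opposite-strand unit (purple) or hold several genes (yellow), for the tubulins, the lists of partner genes, the actins and all units, with the number of units in parentheses and the share printed beside each bar. Tubulins are at 0 for both, and the gamma-tubulin ring complex has the highest share of overlapped units (85.7%).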

How the data were processed

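The study's 15 samples were mNET-seq libraries, and the table used here is the authors' deposited annotation of transcription units, whose columns carry no value of any sample. It was written with rtracklayer 1.48.0, per the file headers, on build dm6, per the submitters' processing notes. The rule that joined genes into units is not given in the sources used here.

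Members were matched to units by symbol. Gene types were read from RefSeq's gene list for the assembly Release 6 plus ISO1 MT, with genes matched on the same chromosome by symbol, CG or CR number or synonym for 17594 of 17698 genes. The remaining 104 counted as not protein-coding. Lengths, distances and overlaps were computed with Python 3.11.15 and pandas 2.3.3, and the code recovered 300 of 300 simulated layouts. Each layout was an isolated pair of units, so nested units, joint units and crowded surroundings were not simulated. No statistical test was run, since units of 1 annotation are not replicates. The members and gene lists were chosen with earlier results of these data known. The text names all 10 members, the units beside them, and list genes that stand at the ends of their list, on X or in joint units. Grip163, Tbcb and Act87E, named for their overlap or lack of one, were chosen after their values were seen. The actins and the orientation of the nearest upstream unit were added after the data were seen. Protein and promoter comparisons that had been planned were not made, as no sequences were used here.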

Additional observations from a re-analysis of the deposited data

How the results depend on the processing

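The number of tubulin units with a divergent start was 2 within 500 bp (24.3% of all units). It was 0 within 200 bp (9.68%) and 5 within 1000 bp (33.1%). Among protein-coding units alone it was 2 again within 500 bp (25.4% of those units). The count of 0 for opposite-strand overlap (39.1% of all units) was also 0 with at least 100 bp (28.5%) and with protein-coding partners alone (34.7%). The count of 0 for joint units (7.15% of all units) was also 0 with a second protein-coding gene (5.02% of units with a protein-coding gene). The median length was 2030 bp without betaTub97EF, and the ratio of ubiquitous to restricted length was 1.07 without gamma-tubulins and 1.00 without alphaTub85E. The number of members whose nearest upstream unit is head to head was 4 (49.8% of all units), or 5 with protein-coding units alone (52.3% of those units). No paired analysis was possible because no value of any sample was used. Protein identity, other tubulin-like proteins and promoter motifs were not run. Unit bounds are annotated starts and ends, not ones measured in these embryos.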
